A study of Mus musculus with 11 samples.

Results

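This account follows 33 genes that repair DNA crosslinks and bulky DNA lesions, out of 55486 named genes in a count table of mouse blood eosinophils. The genes were taken as a list of named members: the Fanconi anaemia genes, their partners in homologous recombination, nucleotide excision repair and translesion synthesis, 3 checkpoint kinases and 1 mismatch repair gene, each with 1 row in the table. The cells came from FVB/N mice whose mammary tumours had given rise to metastases. The treated group was 7 mice given cisplatin together with anti-PD1 and anti-CTLA4 antibodies, which block immune checkpoints, and the control group was 4 mice given control antibody. Blood was drawn by heart puncture on day 21 after treatment began, red cells were lysed, and eosinophils were sorted by flow cytometry on side scatter (high), Ly6g (low), F4/80, CD11b and CD45 (positive) and CD3 (negative), without dead cells. Libraries were made with Smart-seq2, which copies whole transcripts from little input RNA. All mice, controls included, had metastatic disease, and the 3 agents were given only together, so that cisplatin cannot be told apart from the antibodies. Doses, and the time from the last dose of cisplatin to blood collection, are not stated.

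Cisplatin binds purine bases and ties neighbouring bases of 1 strand, or bases of both strands, together. Links within a strand are cut out by nucleotide excision repair, in which XPA and the replication protein A trimer mark the damaged stretch, the helicases ERCC2 and ERCC3 open it, and the nucleases ERCC5 and ERCC4 with ERCC1 cut on either side. Links between strands stall replication forks and call on the Fanconi pathway: a core complex adds ubiquitin to FANCD2 and FANCI, nucleases unhook the link, translesion polymerases copy across it, and BRCA proteins restore the strand by homologous recombination. Many genes of the Fanconi and recombination branches are transcribed mainly in dividing cells, whereas excision repair genes are transcribed in resting cells too. Blood eosinophils are mature cells that no longer divide.

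Library totals ran from 5356118 to 8016658 counts in the treated group and from 3733156 to 6721060 in the control group. Control 3 and control 4 stood apart, with the lowest totals (3733156 and 3923906 counts), the fewest detected genes (10775 and 11263) and 28.2% and 20.1% of counts on haemoglobin genes, against at most 4.42% in the other libraries. Fold changes of named members that moved by more than 1.5 times without these libraries are given with and without them. The cells carried eosinophil transcripts: 10 of 11 marker genes fixed for this cell type, among them Siglecf, Ccr3 and Il5ra, had counts in all 11 libraries, and the granule gene Epx had counts in 10. Their sum ran from 4243 to 11327 counts per 1000000 in treated and from 4810 to 11332 in control libraries. The list and its sum include Adgre1 and Itgam, which encode positive surface markers of the sort. Their detection therefore says nothing about cell identity beyond the sort. In scaled counts per 1000000, Adgre1 ran from 869 to 2664 in treated and from 718 to 2081 in control libraries. Itgam ran from 313 to 587 and from 246 to 378. Neutrophil marker genes summed to 5815 to 14047 in treated and 6877 to 12842 counts per 1000000 in control libraries. Their sum was above that of the eosinophil markers in every library except treated 4 and control 1. In control 4, for example, it was 11446 against 4810. Sums over different genes do not give shares of cells. Identifiers of the libraries, given in the table's column header, hold the digits 19 in all treated and 20 in all control libraries, just before a run of letters. Whatever these digits stand for cannot be told apart from treatment. The numbers that precede them were not used. The letters that follow are shared by treated 1 and all controls and differ in treated 2 to treated 7.

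The repair genes fell into those read in every library and those read in some. Of the 33 genes, 12 had counts in all 11 libraries (Rpa3, Xpa, Ercc3, Rpa1, Fanca, Ercc1, Rpa2, Fancl, Usp1, Ercc4, Rev3l and Atr), 10 had counts in 8 to 10 libraries, and 11 had counts in 7 libraries or fewer. The last class held Brca1, Fancd2, Fanci, Fancm, Chek1, Rad51c, Brip1, Fancb, Fancc, Fancf and Atm. Of the 25 members that passed the filter on low counts, 12 had counts in all 11 libraries. Over all 11389 genes that passed it, 68.8% did. The filter kept 25 of the 33 members, and the 8 it removed (Fancf, Rad51c, Fanci, Brip1, Chek1, Fancd2, Fancm and Brca1) enter no test.

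**Figure D1:**
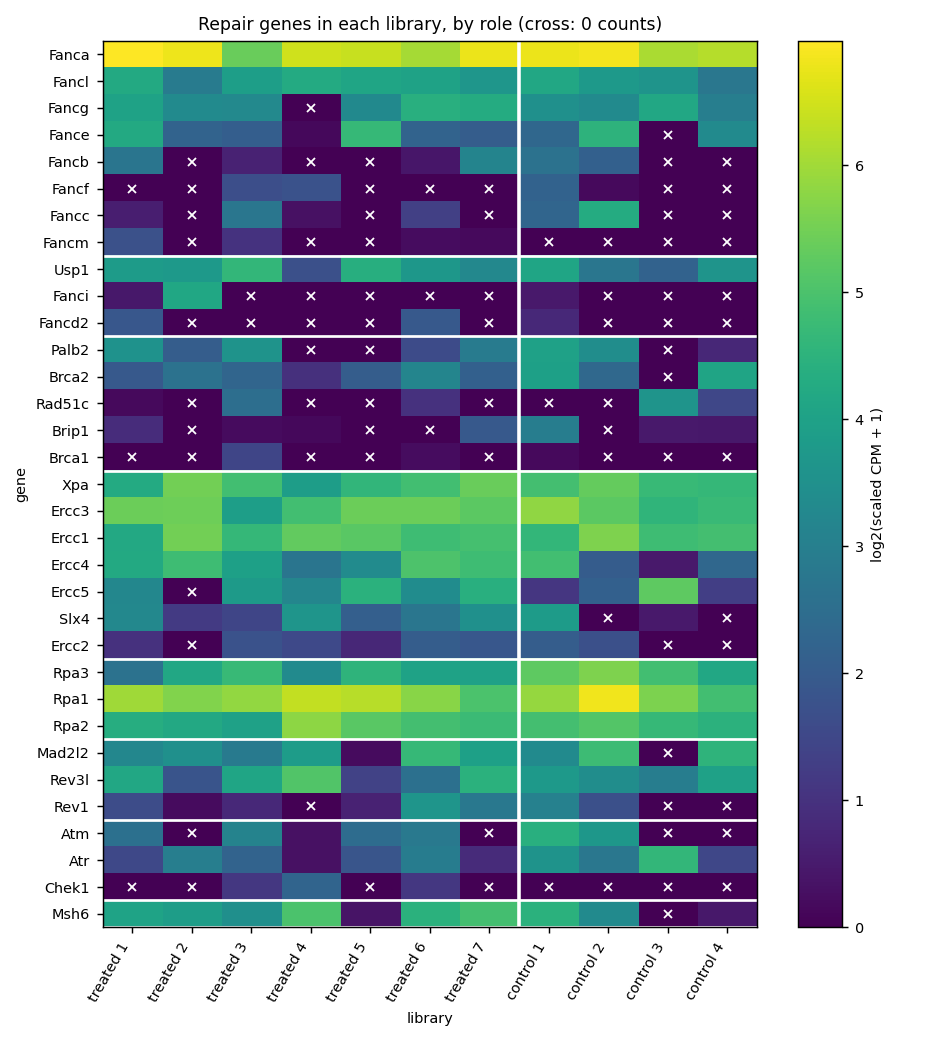
Level of each of the 33 repair genes (rows, grouped by role between white lines) in each of the 11 libraries (columns), as log2 of scaled counts per 1000000 (CPM) plus 1, with a cross where a library had 0 counts. Fanca, Rpa1 and the excision repair genes Xpa, Ercc3 and Ercc1 are bright in every column, while Fancm, Fanci, Fancd2, Brca1 and Chek1 are crossed out in 7 or more columns.

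To compare genes with each other, levels in scaled counts per 1000000 (CPM) were divided by the kilobases of annotated exon. On this scale the highest mean over the 11 libraries was that of Rpa3, the smallest subunit of replication protein A, at 19.2 ± 10.96 CPM per kilobase (SD, n = 11). Next came Xpa, the damage-verifying factor of excision repair (15.0 ± 4.97), the helicase gene Ercc3 (12.4 ± 4.07), Rpa1 (10.6 ± 4.22), Fanca (10.2 ± 3.001), Ercc1 (10.1 ± 3.04) and Rpa2 (9.26 ± 3.67 CPM per kilobase; SD, n = 11 each). Neighbours in this order differed by less than their SD. Below them lay a step to Mad2l2 (4.70), Fancl (3.95), Msh6 (3.16) and Usp1 (3.13 CPM per kilobase), and the lowest were Chek1 (0.120), Fancd2 (0.0724), Fancm (0.0321) and Brca1 (0.0220 CPM per kilobase). Fanca thus stood apart from the other 7 genes of the core complex, which ran from 0.0321 to 3.95 CPM per kilobase on the same scale. Exon length is the union over all annotated transcripts, which understates genes with many long annotated isoforms such as Atr (23629 bases). Of the exon bases of Fanca, 10.5% also lie in Zfp276 on the opposite strand, and since no source here states the strand setting of the counting, reads of that stretch cannot be told apart.

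Promoter sequences from RefSeq (GRCm38.p6) were at hand for 29 of the 33 genes, and 3 are shown that hold no annotated exon in the 250 bases before the start: Xpa and Fanca, read in every library, and Brca2, a recombination gene of low level. Capitals mark the CCAAT box, a promoter element, in Xpa and Fanca, and a match to the binding letters of E2F, a factor of S-phase transcription, in Brca2. They lie at chr4:46196312-46196561 (minus strand), chr8:123318577-123318826 (minus strand) and chr5:150522371-150522620 (plus strand).
Xpa: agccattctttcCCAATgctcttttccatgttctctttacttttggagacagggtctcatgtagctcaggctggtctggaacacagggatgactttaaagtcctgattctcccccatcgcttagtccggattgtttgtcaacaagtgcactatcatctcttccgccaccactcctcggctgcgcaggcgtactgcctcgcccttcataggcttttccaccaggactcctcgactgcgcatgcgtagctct
Fanca: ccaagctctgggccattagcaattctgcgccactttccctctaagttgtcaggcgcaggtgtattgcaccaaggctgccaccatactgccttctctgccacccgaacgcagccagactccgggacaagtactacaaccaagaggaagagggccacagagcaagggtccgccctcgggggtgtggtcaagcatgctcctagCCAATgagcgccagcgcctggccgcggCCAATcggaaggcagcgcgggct
Brca2: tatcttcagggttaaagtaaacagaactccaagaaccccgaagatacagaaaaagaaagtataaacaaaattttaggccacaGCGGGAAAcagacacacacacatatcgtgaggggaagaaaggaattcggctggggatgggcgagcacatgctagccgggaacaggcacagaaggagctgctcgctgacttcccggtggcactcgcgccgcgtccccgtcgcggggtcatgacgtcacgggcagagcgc
In Fanca both CCAAT boxes lie close to the start, with their first bases 50 and 23 bases before it, while the box of Xpa lies 238 bases before it. The letters CCAAT, on either strand, were in the 250 bases of 19 of 29 members (65.5%) and of 37.5% of 27025 genes. They were in 6 of 9 members read in all libraries and in 13 of 20 of the others. The E2F letters TTTGGCGC, TTTCCCGC, TTTCGCGC or TTTGCCGC, on either strand, were in 2 of 29 members (Brca2 and Fancg; 6.90%) and in 2.16% of all genes. None of the 4 E2F words contains CCAAT, and a match describes letters only.

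How many of the repair genes a library showed went with how many genes it showed in all. In treated 1, treated 3, treated 6 and control 1, with 14494 to 15557 detected genes, 30 or 31 of the 33 members had counts. In the other 7 libraries, with 10775 to 13406 detected genes, 17 to 25 members had counts, with the fewest in control 3 (17) and 21 each in control 4 and treated 2. Total counts did not order the libraries in this way: treated 6 had 30 members at 5356118 counts and treated 7 had 25 at 7462340. Of the genes that passed the filter, 96.4% to 97.8% had counts in the first 4 libraries and 82.5% to 94.4% in the others. A count of 0 allows a level of up to 1.20 CPM in control 3, 1.09 CPM in control 4 and 0.354 to 0.502 CPM in the other libraries (3 counts). How many cells were sorted for each library is not stated, and in bulk RNA fewer cells that express a gene cannot be told apart from less RNA per cell.

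**Figure D2:**
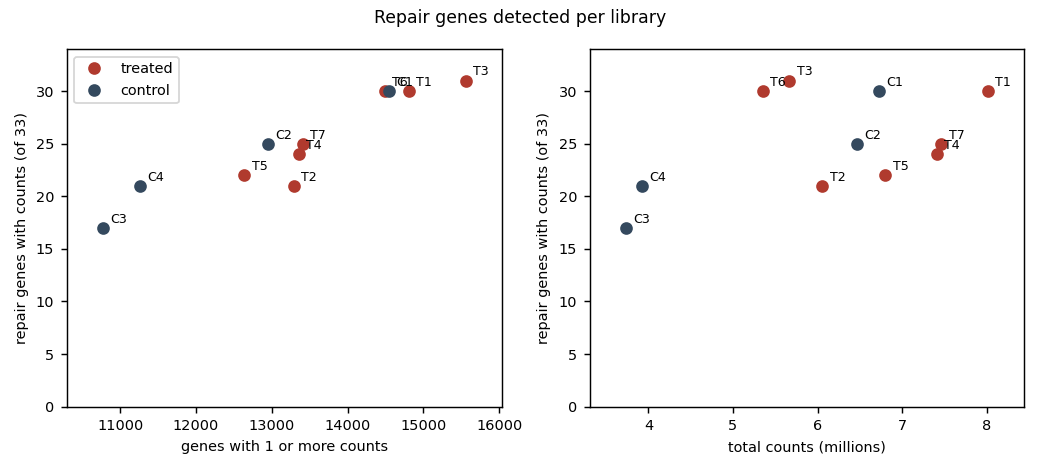
Number of the 33 repair genes with 1 or more counts in each library (T, treated; C, control) against the number of all detected genes (left) and against total counts (right). The libraries with 14494 or more detected genes reach 30 or 31 members, and control 3 and control 4 lie lowest on both horizontal axes.

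The first comparison asked whether the repair genes differed between eosinophils of treated and control mice. None of the 25 tested members passed (edgeR quasi-likelihood test, adjusted p from 0.693 for Rpa3 to 0.998 for Ercc3), against 0% of all 11389 genes. DESeq2 called 0.611% of 12933 genes (0.441% higher and 0.17% lower in treated libraries) and limma-voom 0%, and neither called a member. At an unadjusted p under 0.05 there was 1 member, Rpa3, in the direction of lower values in treated libraries, where 3.13% of all genes had such a p, and 0 members in the other direction (3.7% of all genes; 6.82% in both together). The median log2 fold change of the 25 members was -0.03, beside 0.03 over all tested genes, and 11 of 25 members lay above 0, beside 51.8% of all tested genes. For 0 of 25 members did the scaled CPM of the 2 groups not overlap (0.509% of all genes with treated higher and 0.43% with treated lower). Together the 33 genes took 362 to 483 CPM in treated libraries, and 566, 592, 355 and 314 CPM in controls 1 to 4, so that all treated sums lay below the first pair of controls and above the second.

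How tightly a fold change was bounded differed among members. For 6 genes, Fanca, Ercc1, Rpa1, Ercc3, Xpa and Rpa2, the 95% interval of the single-gene fold change, computed from the fitted SE, lay within 2-fold in both directions, the narrowest being that of Fanca (0.630- to 1.52-fold). All 6 had counts in every library. For 16 of 25 members the interval reached beyond 4-fold in at least 1 direction, for example 0.416- to 11.9-fold for Msh6.

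**Figure D3:**
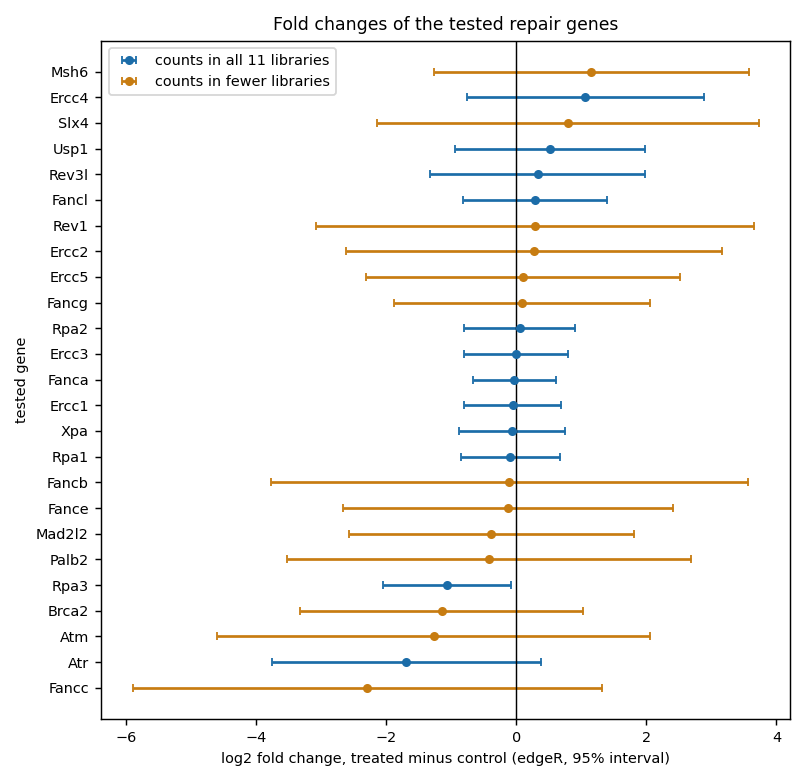
Fitted log2 fold change, treated minus control, of the 25 tested repair genes with 95% intervals from the edgeR fit, coloured by whether the gene had counts in all 11 libraries. Intervals are narrow for Fanca, Ercc1, Rpa1, Ercc3, Xpa and Rpa2, and only that of Rpa3 does not reach 0, with no gene passing after adjustment.

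Among genes of the Fanconi core complex, the ubiquitin ligase of the pathway, Fanca differed between the groups by less than the spread within them. Fanca (chromosome 8, 123268300 to 123318576, GRCm38), which encodes a scaffold subunit, ran from 41.2 to 125 CPM in treated libraries with a median of 87.5, and stood at 109, 114, 67.3 and 72.7 CPM in controls 1 to 4. The means were 89.1 ± 29.3 CPM (SD, n = 7) and 90.8 ± 24.2 CPM (SD, n = 4), which gave -0.03 ± 0.298 on the log2 scale (SE; adjusted p = 0.993, edgeR). Fancl, the catalytic ligase subunit, had the next most even counts of the complex, at 14.3 ± 4.13 and 11.7 ± 4.66 CPM, and Fancg stood at 11.6 ± 6.97 and 10.9 ± 4.46 CPM in treated (SD, n = 7) and control libraries (SD, n = 4). Fancc (chromosome 13, 63285043 to 63497278), a subunit that binds FANCE, had the lowest fitted fold change of all members. It ran from 0 to 5.74 CPM with a median of 0.236 in treated libraries and stood at 3.80, 18.5, 0 and 0 CPM in controls 1 to 4. The groups overlapped, and the log2 fold change was -2.29 ± 1.69 (SE; adjusted p = 0.870, edgeR). Without control 2 it was -0.22, without control 1 -2.44, and without control 3 and control 4 -3.22. Of its exon bases 16.4% are shared with Gm16133 and 2.21% with 2010111I01Rik, both on the opposite strand, and only the latter had counts. Fancm, the translocase that anchors the complex to DNA, had 0 counts in all controls and 28 counts in 4 treated libraries, 19 of them in treated 1.

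FANCD2 and FANCI form the clamp that receives ubiquitin, and USP1 removes it. Fancd2 had 22 counts in treated 1, 17 in treated 6, 6 in control 1 and 0 elsewhere. Fanci had 107 counts in treated 2, 3 each in treated 1 and control 1, and 0 in the other 8 libraries, and 16.0% of its exon bases are shared with Polg on the opposite strand. Neither clamp gene was thus read in more than 3 of 11 libraries. Usp1 (chromosome 4, 98923810 to 98935543) was read in all of them, from 2.24 to 23.6 CPM with a median of 12.5 in treated libraries and at 16.1, 5.66, 3.61 and 11.3 CPM in controls 1 to 4. The groups overlapped over most of their range (log2 fold change 0.51 ± 0.683, SE; adjusted p = 0.940, edgeR).

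Of the recombination genes, Brca1 and Rad51c were close to the detection limit. Brca1 had 12 counts in treated 3 and 1 each in treated 6 and control 1, and Rad51c had 32 counts in treated 3 and 28 in control 3, with 6 or fewer in any other library. Brca2 (chromosome 5, 150522630 to 150570329), a gene of homologous recombination, ran from 0.944 to 8.04 CPM with a median of 3.43 in treated libraries and stood at 14.7, 4.10, 0 and 16.0 CPM in controls 1 to 4. Control 1 and control 4 lay above all treated libraries and control 3 below them, so the groups overlapped (log2 fold change -1.149 ± 1.02, SE; adjusted p = 0.908, edgeR). Palb2 (chromosome 7, 122107262 to 122132985), the partner that ties BRCA2 to BRCA1, ran from 0 to 11.04 CPM with a median of 3.16 in treated libraries and stood at 14.8, 9.76, 0 and 0.727 CPM in the controls. Its log2 fold change was -0.42 ± 1.45 (SE; adjusted p = 0.978, edgeR), with 0.42 without control 1 and -1.34 without control 3 and control 4.

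Of the 7 nuclease and excision repair genes, 4 were read in every library (Xpa, Ercc1, Ercc3 and Ercc4). Xpa (chromosome 4, 46155347 to 46196311) ran from 13.8 to 44.1 CPM with a median of 28.0 in treated libraries and stood at 29.0, 39.1, 24.8 and 24.0 CPM in controls 1 to 4. The controls lay inside the treated range, with means of 28.0 ± 11.1 CPM (SD, n = 7) and 29.2 ± 6.91 CPM (SD, n = 4), and the log2 fold change was -0.06 ± 0.379 (SE; adjusted p = 0.989, edgeR). Ercc3 stood at 35.2 ± 10.6 and 35.2 ± 14.8 CPM, and Ercc1, the partner that positions the ERCC4 nuclease, at 31.0 ± 9.19 and 32.2 ± 11.3 CPM in treated (SD, n = 7) and control libraries (SD, n = 4). Unlike its partner, Ercc4 (chromosome 16, 13109684 to 13150617) was uneven, from 5.54 to 31.5 CPM with a median of 17.9 in treated libraries and at 28.3, 3.11, 0.401 and 4.00 CPM in the controls. Control 1 lay within the upper treated values and the other controls below all treated libraries (log2 fold change 1.06 ± 0.850, SE; adjusted p = 0.892, edgeR; 0.30 without control 3 and control 4). Slx4 (chromosome 16, 3979105 to 4003770), the scaffold that brings nucleases to a crosslink, had a like pattern, from 1.26 to 11.6 CPM with a median of 5.69 in treated libraries and at 13.3, 0, 0.401 and 0 CPM in the controls (log2 fold change 0.79 ± 1.37, SE; adjusted p = 0.952, edgeR). Without control 1 the groups of Ercc4 and Slx4 no longer overlapped, with treated higher, which held for 2.17% of all 11849 genes tested then (1.53% with treated lower). The log2 fold change of Ercc4 was then 2.90 (adjusted p = 0.274, edgeR; 0.274 to 1 over 25 alternatives), and Slx4 had 1 count in the other controls (adjusted p = 0.278, edgeR; 0.278 to 1 over 25 alternatives). In Ercc5, the nuclease that cuts on the other side of a lesion, control 3 stood out at 37.3 CPM against 1.14, 3.40 and 1.45 CPM in the other controls and 0 to 21.0 CPM in treated libraries.

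Replication protein A binds single-stranded DNA in excision repair, recombination and checkpoint signalling alike, as a trimer with 1 copy of each subunit. Rpa1 stood at 58.0 ± 16.3 CPM (SD, n = 7 treated) against 61.6 ± 36.1 CPM (SD, n = 4 controls), and Rpa2 at 28.1 ± 13.7 and 27.1 ± 5.28 CPM. Rpa3 (chromosome 6, 8255936 to 8259173) was the only member with an unadjusted p under 0.05. It ran from 5.19 to 25.2 CPM with a median of 15.2 in treated libraries, and stood at 36.9, 48.4, 28.0 and 17.1 CPM in controls 1 to 4. The first 3 controls lay above all treated libraries and control 4 within their range. Means were 15.7 ± 6.95 CPM (SD, n = 7) and 32.6 ± 13.3 CPM (SD, n = 4), and the difference was -1.06 ± 0.460 on the log2 scale (SE; unadjusted p = 0.0363, adjusted p = 0.693, edgeR). Its fold change was below 0 in all 25 alternatives (-2.65 to -0.80; adjusted p 0.308 with DESeq2 to 1), and with an offset for exon length and GC content it was -0.82 (adjusted p = 0.833, edgeR). The alternative that only sets the threshold to 0.1 repeats the main fit and cannot change this fold change. Rpa3 has the shortest exon sequence of the members, 1136 bases.

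Translesion synthesis copies past the unhooked crosslink with REV1 and polymerase zeta, of which REV3L is the catalytic subunit and MAD2L2 (REV7) an accessory subunit. Mad2l2 (chromosome 4, 148130384 to 148145699) ran from 0.145 to 24.5 CPM with a median of 10.3 in treated libraries and stood at 9.13, 26.6, 0 and 22.2 CPM in controls 1 to 4. Its groups spanned the same range (log2 fold change -0.39 ± 1.02, SE; adjusted p = 0.971, edgeR). Rev3l stood at 13.8 ± 11.4 CPM (SD, n = 7 treated) against 10.98 ± 3.48 CPM (SD, n = 4 controls). Rev1 stood at 3.004 ± 4.29 and 2.41 ± 3.47 CPM, and 26.6% of its exon bases are shared with Eif5b on the opposite strand, a gene with 3705 counts to the 213 of Rev1.

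The kinases ATR and ATM sense stalled forks and double-strand breaks, and CHEK1 passes the signal of ATR on to the cell cycle. Atr (chromosome 9, 95857597 to 95951781) ran from 0.236 to 6.95 CPM with a median of 2.61 in treated libraries and stood at 11.03, 5.80, 23.6 and 1.82 CPM in controls 1 to 4. Control 1 and control 3 lay above all treated libraries, and the other controls within their range (log2 fold change -1.69 ± 0.967, SE; adjusted p = 0.802, edgeR; -0.93 without control 3). Atm (chromosome 9, 53439149 to 53536740) ran from 0 to 7.65 CPM with a median of 4.49 in treated libraries and stood at 20.2, 11.9, 0 and 0 CPM in the controls. Here control 1 and control 2 lay above all treated libraries and the other controls at the bottom (log2 fold change -1.27 ± 1.55, SE; adjusted p = 0.940, edgeR). It was -0.27 without control 1 and -2.22 without control 3 and control 4. Chek1 had 0 counts in all controls and 8, 32 and 7 counts in treated 3, treated 4 and treated 6.

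MSH6 takes part in the recognition of base mismatches. Msh6 (chromosome 17, 87975062 to 87990892) ran from 0.290 to 31.1 CPM with a median of 15.4 in treated libraries and stood at 20.8, 9.20, 0 and 0.364 CPM in controls 1 to 4. The 2 low controls were control 3 and control 4, and 1 treated library, treated 5, was as low, with 2 counts (exact Poisson interval 0.242 to 7.22, for counting error only) beside 69 or more in the other treated libraries. The log2 fold change was 1.155 ± 1.13 (SE; adjusted p = 0.924, edgeR), with 0.23 without control 3 and control 4 and 2.36 without control 1.

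**Figure D4:**
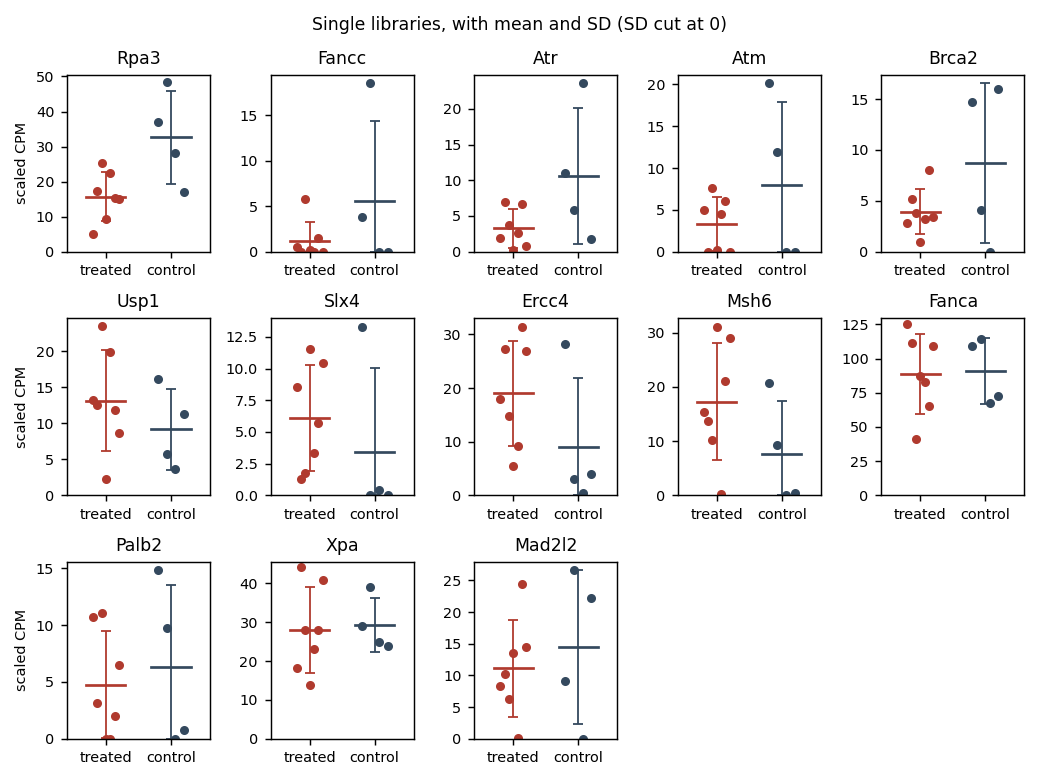
Scaled CPM of 13 repair genes in single libraries (points), with the mean (bar) and SD (drawn down to 0 at most) of the 7 treated and 4 control libraries, each panel with its own axis from 0. The groups overlap in every panel; in Rpa3 1 control reaches into the treated range, and in Ercc4, Slx4 and Msh6 the control mean is carried by 1 or 2 libraries.

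The control libraries differed among themselves in which repair genes they held. Of the 33 members, 16 had 0 counts in control 3, 12 in control 4, and 11 in both. Of these 11, 6 (Atm, Ercc2, Fancb, Fancc, Fancf and Rev1) had counts in both control 1 and control 2. Detection was low over all genes too: of those that passed the filter, 82.5% had counts in control 3 and 85.7% in control 4. The share of all genes at 0 in both was not computed, so these counts are not read as particular to repair genes. Against control 1 and control 2 alone, with 28 members tested, the median log2 fold change was -0.44 (0.10 over all 13012 tested genes), 7 of 28 members lay above 0 (55.1% of all genes), and none passed (edgeR, smallest adjusted p = 0.465, against 0% of all genes). In that comparison 1 member, Rpa3, had an unadjusted p under 0.05 with treated lower (2.16% of all genes), at a log2 fold change of -1.40, and the groups of Rpa3 and Atm did not overlap, with treated lower. Over all genes 4.32% did not overlap with treated lower and 4.3% with treated higher. Slx4 went from 0.79 to -0.12 on the log2 scale and Ercc5 from 0.10 to 2.37. The part of haemoglobin reads and library complexity in these shifts was not tested.

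No other listed gene of these pathways passed the test. Of 145 further genes of crosslink repair, nucleotide and base excision repair, recombination, translesion synthesis, mismatch repair, damage signalling and p53 response, 126 were tested, and 0 passed in either direction (edgeR, smallest adjusted p = 0.626). Their median log2 fold change was -0.07, 44.4% lay above 0, and 4.76% had an unadjusted p under 0.05 (6.82% of all tested genes), 3 in each direction. Polk stands on both the translesion and the p53 list. Among further crosslink genes 0 of 19 tested passed. Cenpx, a histone-fold partner of FANCM, stood at 44.5 ± 11.5 CPM (SD, n = 7 treated) against 81.4 ± 21.3 CPM (SD, n = 4 controls; log2 fold change -0.87, adjusted p = 0.626, edgeR). Ube2t, the ubiquitin-conjugating enzyme of the core complex, had 1 count in the 4 controls together and a treated median of 4.26 CPM, with counts in 4 of 7 libraries. Of the 28 excision repair genes tested, Cetn2, of the XPC damage sensor, stood at 90.1 ± 32.4 and 149.9 ± 34.6 CPM (adjusted p = 0.626, edgeR), and Ercc8, a factor of transcription-coupled repair, had 1 count in all controls together and counts in 4 of 7 treated libraries. Of 16 recombination genes, Swi5 stood at 46.5 ± 10.6 and 86.7 ± 16.5 CPM (log2 fold change -0.90, adjusted p = 0.626, edgeR). None of 13 base excision, 7 translesion, 17 damage signalling and 6 mismatch repair genes passed. Their members with the smallest p were Polb (54.0 ± 18.5 and 73.2 ± 17.2 CPM), Ube2b (333 ± 75.8 and 432 ± 74.3 CPM), Topbp1 (13.0 ± 6.18 and 24.3 ± 13.7 CPM) and Mlh3 (1.72 ± 2.53 and 10.4 ± 16.2 CPM; SD, treated n = 7, control n = 4 in each).

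Genes induced by p53, a readout of ongoing damage signalling in many cell types, did not pass either (0 of 21 tested, 13 above 0, median log2 fold change 0.03). The smallest p was that of Ccng1, a direct p53 target, which ran from 68.1 to 148 CPM with a median of 117 in treated libraries and stood at 89.7, 75.4, 41.3 and 51.3 CPM in controls 1 to 4. Control 1 and control 2 lay within the treated range and the others below it (log2 fold change 0.80 ± 0.294, SE; adjusted p = 0.626, edgeR). Trp53inp1 stood at 44.3 ± 23.1 CPM (SD, n = 7 treated) against 24.3 ± 12.4 CPM (SD, n = 4 controls).

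Since several members are transcribed mainly in S phase, markers of dividing cells were read beside them. All 30 listed markers had counts somewhere; 16 to 30 were detected in treated and 11 to 21 in control libraries, and their summed level ran from 77.3 to 474 CPM and from 127 to 399 CPM. Of 26 tested, 0 passed and 13 lay above 0, with a median log2 fold change of 0.06. Without control 3 and control 4 the median was 1.46, over the 29 markers tested then. At an unadjusted p under 0.05 were Cdk1 and Tk1, both with higher fitted values in treated libraries. Treated 3, the library with most of the Brca1 counts and with 32 counts of Rad51c, had all 30 markers, at a sum of 310 CPM. It also had the most detected genes of any library (15557). Treated 4, with most of the Chek1 counts, had the highest summed level (474 CPM). In treated 2, which held nearly all Fanci counts, the sum was 202 CPM. Treated 1, with 22 counts of Fancd2 and 19 of Fancm, had a sum of 124 CPM. Control 3, at 399 CPM, had 28 counts of Rad51c and 0 of Brca1, Chek1, Fancd2, Fanci and Fancm. Markers of other blood cells were present as well: summed B cell markers ran from 1416 to 6990 CPM in treated and from 544 to 3383 CPM in control libraries, monocyte and macrophage markers from 2372 to 19168 and from 1028 to 13520 CPM, and T cell markers from 24.9 to 85.1 and from 17.6 to 36.2 CPM. Neutrophil markers ran from 5815 to 14047 and from 6877 to 12842 CPM, platelet markers from 969 to 3608 and from 298 to 8087 CPM, erythroid markers from 12085 to 46346 and from 1676 to 291001 CPM, and NK cell markers from 8.71 to 55.8 and from 11.1 to 42.6 CPM. None of these marker genes passed. At an unadjusted p under 0.05 were 6 erythroid and 2 platelet genes with lower fitted values in treated libraries, and C1qa, C1qb, C1qc and Ighm with higher ones. Several of these directions depended on control 3 and control 4. Without them the median log2 fold change went from -2.69 to 2.57 for erythroid and from -1.72 to 2.82 for platelet markers. It went from 0.66 to 3.03 for monocyte and macrophage and from 1.505 to 0.96 for B cell markers. For the other lists the filter on low counts then kept more genes, so the medians cover different genes. They were -0.38 (5 genes) and 4.11 (8 genes) for T cell markers. For NK cell markers they were -0.22 (3 genes) and 2.88 (4 genes), and for neutrophil markers -1.01 (9 genes) and -0.14 (10 genes). The part of RNA from these cells in the levels of the repair genes was not tested.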

How the data were processed

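RNA of sorted blood eosinophils was measured in 11 libraries, 1 per mouse per the series design. The values are raw read counts for each Ensembl gene, deposited by the authors as 1 table. The submitters' processing notes name bcl2fastq 2.20.0.422, HISAT2 2.10, SAMtools 1.15.1 and the build GRCm38. No source used here names the read counter, its strand setting or the annotation release. A row that names no gene held 0 counts and was left out. Reads carry no molecular identifiers, so intervals and limits cover counting error only.

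Groups came from the sample titles. Counts were fitted over all genes with edgeR 4.0.16 (R 4.3.3; quasi-likelihood test, robust fit, filterByExpr, TMM scaling, Benjamini-Hochberg adjustment over 11389 genes, threshold 0.05, two-sided). Printed CPM use the TMM-scaled library sizes of tested genes, except summed marker levels, which use library totals. Exon lengths came from GENCODE M21 and promoters from RefSeq. Alternatives included DESeq2 1.42.0 and limma 3.58.1 (voom). The code was tested on simulated counts with the library sizes and dispersions of the data, in genes within the members' range of levels. At a log2 change of 1, 2, 3 and 4, it called 0, 8, 19 and 19 of 50 changed genes each. Changes of these sizes can therefore go without a call.

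The members, gene lists, tests and alternatives were chosen with earlier results of these data known. Named in full were tested members with an unadjusted p under 0.05, the 4 largest and 4 smallest fold changes, the tested member with the highest level per kilobase in each role, and, of each pathway list, up to 2 genes with the smallest p. Values of other members were added after seeing them. Replicate numbers name different mice and did not pair the libraries: the correlation of deviations between libraries of the same number was -0.116 to 0.0212 over 4 pairs.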

Additional observations from a re-analysis of the deposited data

Results flagged for a closer look

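Within a group, single libraries stood far from the others for 11 members, 15 values in 64 groups with any counts. In many of these groups the other libraries had 0 or few counts, so that any reading stands out. The flagged values are listed without a share over all genes, and their number is not read as an excess. In treated libraries these were Rad51c in treated 3 (4.71 CPM), Fancc in treated 3 (5.74 CPM), Brca1 in treated 3 (1.77 CPM), Fanci in treated 2 (16.9 CPM), Brip1 in treated 7 (2.88 CPM) and Chek1 in treated 4 (3.77 CPM). In control 1 these were Ercc4 (28.3 CPM), Slx4 (13.3 CPM), Fancf (3.55 CPM), Brip1 (6.72 CPM), Fancd2 (0.761 CPM), Fanci (0.380 CPM) and Brca1 (0.127 CPM), and in control 3 Ercc5 (37.3 CPM) and Rad51c (11.2 CPM). All 15 were the highest value of their group, and 7 of the 9 in controls were in control 1, the control library with the most detected genes (14550).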

How the results depend on the processing

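Members were called in none of 25 alternatives (24 fixed earlier and 1 added after seeing the file), and their smallest adjusted p in any was 0.274. All genes together gave 0 calls by edgeR and limma-voom under each, and 79 by DESeq2. The median log2 fold change of the members, -0.03 in the main fit, ran from -0.44 without control 3 and control 4 to 0.17 with the marker level as a covariate. It was -0.12 to 0.14 when 1 library was left out. Each move was below 0.546, the SD within groups of the mean log2 level of the tested members, which is not an error of this median. In the main fit 11 of 25 members lay above 0 (51.8% of all genes). With no filter it was 17 of 33, and without control 3 and control 4 it was 7 of 28 (55.1% of all genes). It was 7 of 25 with limma-voom and 16 of 25 with the marker level as a covariate. When 1 library was left out, it ran from 6 of 26 (without control 4) to 18 of 26 (without control 2). Shares of all genes above 0 were not computed for the other alternatives. The number at an unadjusted p under 0.05 went from 1 (6.82% of all genes) to 2 with no filter (Chek1 and Fancm; 9.9% of all genes), 2 with detected genes as a covariate (Fancc and Rpa3; 4.84%), 2 with DESeq2 (Atr and Rpa3; 11.2%), 0 with the marker level of dividing cells as a covariate (6.38%), 0 with the offset for length and GC content (6.3%), and 0 to 2 without 1 library (Ercc4 and Slx4 without control 1; 11.3%). With the replicate block it was 0 (2.89% of all genes), and Mad2l2 turned to 0.16. No member changed its call under the block. Members whose groups do not overlap went from 0 to 2 without control 3 and control 4 (Atm and Rpa3; 8.62% of all genes in both directions, against 0.94% with all libraries) and to 0 to 2 without 1 library (Ercc4 and Slx4 without control 1; 3.7%). Of 322 fold changes of the 13 named members, 306 kept their sign, including those at a threshold of 0.1, which repeat the main fit. Of the others, Fanca turned to 0.19 with the marker level and 0.46 with the identifier letters as a covariate, where treated 1 alone stands against the controls. Xpa turned to 0.22 with the marker level and 0.10 with the length and GC offset, Palb2 to 0.75 with the letters, and Slx4 to -0.12 without control 3 and control 4. When 1 library was left out, Fanca ranged from -0.12 to 0.10, Xpa from -0.21 to 0.11, Palb2 from -0.83 to 0.42 and Mad2l2 from -0.75 to 0.091. The cause was not tested. The 8 members removed by the filter on low counts were tested only with other filters or samples.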
